A study of Mus musculus with 5 samples.

Results

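Some ZFP24 binding sites lay close together on the chromosome. ZFP24 (also called ZFP191) is a zinc finger transcription factor, and its sites were mapped by chromatin immunoprecipitation sequencing (ChIP-seq) in mouse oligodendrocyte progenitor cells (OPC) and in the oligodendrocytes (OLG) derived from them. A peak is a stretch of genome that the authors called as bound. A clustered peak here is one whose centre lay within 10 kb of the centre of another peak of the same list, and such peaks were chained into clusters. There were 519 clustered peaks among the 6395 peaks of both lists. In OPC, 407 of 4643 peaks formed 196 clusters, and in OLG, 112 of 1752 peaks formed 55 clusters. The members were chosen by the measured peak positions themselves, so their number and closeness are descriptions and carry no test.

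The cells were isolated by immunopanning from brains of C57BL/6 mice at postnatal day 7. Both stages were taken from wild-type and from Zfp24-null mice, with 1 library for each of these groups, and a further library of input DNA without antibody was pooled from all of them. To obtain OLG, progenitors of either genotype were differentiated over 5 days by removing PDGF and adding 40 ng/ml of the thyroid hormone triiodothyronine, and all immunoprecipitations used an antibody raised against ZNF24, the human counterpart. The null cells and the input were controls, and the data analysed here were 1 peak list for each stage. The labels attach each list to the wild-type and the null library of its stage alike, and it was taken here as the list of wild-type peaks, an assumption that the lists themselves cannot test. There was no replicate, and the lists held positions only, without counts or scores, so depth is unknown and neither peak strength nor the identity of the cells could be checked from them.

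ZFP24 belongs to the zinc finger proteins with a SCAN domain and is needed for oligodendrocytes to reach the myelinating stage. It is known to bind tandem repeats of the tetranucleotide TCAT. A promoter is the stretch around a transcription start, where many factors bind, while introns and the sequence between genes hold enhancers, which can act on a start from a distance. A repeat peak here had a run of TCAT units of 12 bases or longer, starting at any base of the unit and read on the + or the - strand, within 100 bp of its centre. Repeat peaks made up 12.2% of all OPC peaks and 5.71% of all OLG peaks, and 0.121% of the 200-bp windows of chromosomes 1 to 19 and X held such a stretch.

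At 2 of the 3 places where both cell stages had a cluster, Ext1 and Dzip3, the same TCAT stretch lay in the first peak of each list. These sequences are shown because they lie in the peaks that overlap most between the lists at these 2 places. They are read from the mm10 assembly (GRCm38.p6) on the strand that reads TCAT, with the repeat in capitals and 20 bases on each side.
Ext1, chr15:53343796-53343857, - strand: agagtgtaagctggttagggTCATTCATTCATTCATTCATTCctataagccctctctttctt
Dzip3, chr16:48993081-48993133, - strand: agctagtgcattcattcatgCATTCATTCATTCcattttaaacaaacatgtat
The Ext1 stretch was 22 bases long and lay in an intron, and the Dzip3 stretch was 13 bases long and also lay in an intron. The second peak of each cluster held no such repeat. The 100 bp around the centre of the second OPC peak of Dzip3, shown for contrast on the + strand, read as follows.
Dzip3, second OPC peak, chr16:48993639-48993738, + strand: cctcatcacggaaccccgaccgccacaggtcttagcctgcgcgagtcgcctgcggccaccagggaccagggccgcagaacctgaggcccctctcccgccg
The GC content of the 200 bp around the centre was 41% at the first and 55.5% at the second OPC peak of Ext1, and 41.5% and 66% at Dzip3.

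Ext1 encodes a glycosyltransferase that builds heparan sulphate chains, the sugar chains of proteoglycans. Its OPC cluster, chr15:53343736-53344547, had peak centres 2319 and 1716 bp downstream of the nearest start, the first in an intron and the second in a coding exon. Its OLG cluster, chr15:53343678-53345181, had centres 2371 and 1088 bp downstream, again in an intron and a coding exon. The intronic peaks overlapped by 163 bp with centres 52 bp apart, whereas the exonic peaks did not overlap and their centres were 628 bp apart. The lists thus shared 1 of 2 peaks at this locus.

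Dzip3, which encodes an RNA-binding ubiquitin ligase, was met more closely. Its OPC cluster, chr16:48992981-48993793, had centres 856 and 252 bp downstream of the start, both in an intron. The OLG cluster, chr16:48992994-48993971, had centres 837 and 80 bp downstream, in an intron and in the 5' UTR. The repeat-holding peaks overlapped by 196 bp with centres 19 bp apart, and the start-proximal peaks overlapped by 43 bp with centres 172 bp apart.

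Galnt1 encodes an enzyme that places the first sugar of mucin-type O-glycans. Its OPC cluster, chr18:24205237-24206701, had centres 1256 bp apart, 3 bp upstream and 830 bp downstream of different starts of the gene. The OLG cluster, chr18:24205303-24206509, had centres 986 bp apart, 69 and 632 bp downstream of different starts. The pairs overlapped by 143 bp and 17 bp, and no peak of the locus held the repeat. Both OPC peaks thus touched an OLG peak at Dzip3 and Galnt1, and 1 of the pair at Ext1, although the second overlap at Dzip3 and at Galnt1 took in only the edges of the peaks.

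**Figure D1:**
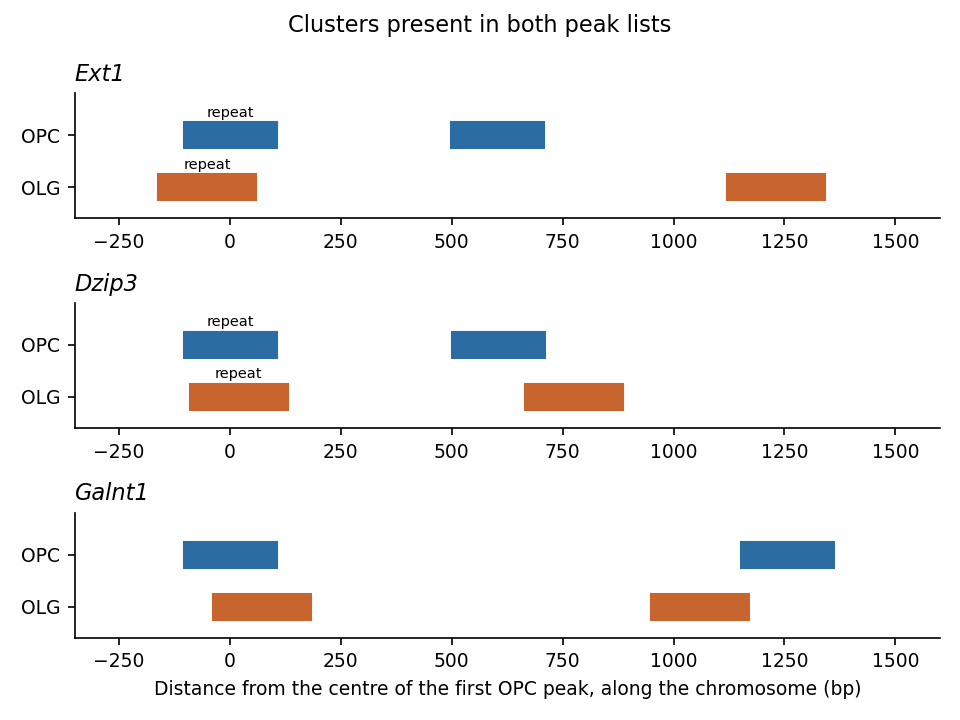
Peaks of the clusters that meet between the lists, at Ext1, Dzip3 and Galnt1, with OPC peaks in blue and OLG peaks in orange, drawn to scale in bp from the centre of the first OPC peak along the chromosome. The peaks marked "repeat" hold the TCAT stretch, and the second peaks of Ext1 have centres 628 bp apart, while those of Dzip3 and Galnt1 overlap at their edges.

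These 3 meetings were 1.53% of the OPC clusters and 5.45% of the OLG clusters. Overlap of single peaks, which is another measure, was found at 254 of all 4643 OPC peaks (5.47%) and 254 of all 1752 OLG peaks (14.5%). No meeting was left when peaks within 1 kb were merged into 1 site before chaining (0 meetings). Merging turned at least 1 cluster of each locus into a single site. With a limit of 20 kb 8 meetings were found. The study names a pooled input as a control of both stages, and its part in the meetings was not tested. A gene could also hold a cluster in each list at different places. Counting every protein-coding gene inside a cluster or nearest to one of its peaks, 230 genes (1.06% of 21679) belonged to OPC clusters, 66 (0.304%) to OLG clusters and 5 to both. Besides Ext1, Dzip3 and Galnt1 these were Kcnd3 and Fam120a. At Kcnd3, which encodes the voltage-gated potassium channel Kv4.3, the OPC cluster of 3 peaks lay inside an intron. The OLG centres there were 1151 bp apart with a start between them, 540 and 145 bp upstream of different starts. At Fam120a, which encodes an RNA-binding scaffold protein, the OPC pair lay 41504 and 42360 bp upstream of the start and the OLG pair at 723 bp upstream and 865 bp downstream.

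Most clusters were pairs. The OPC list held 182 clusters of 2 peaks, 13 of 3 and 1 of 4, and the OLG list 53 of 2 and 2 of 3. The span between the outer centres had a median of 2611 bp in OPC (416 to 17662) and 1529 bp in OLG (446 to 9656). OPC clusters were found on 20 chromosomes and OLG clusters on 19, with none on X. The clustered share, 8.77% of OPC and 6.39% of OLG peaks, is not compared between the lists, because a longer list has closer neighbours.

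Spacings gathered at the short end. In OPC, 75 of the 211 neighbouring pairs within 10 kb had centres within 1 kb of each other, 65 of them between 500 and 1000 bp, and each further 1-kb step up to 10 kb held 10 to 24 pairs. In OLG, 14 of 57 pairs were within 1 kb and 17 between 1 and 2 kb, with 2 to 6 in each later step. Over the whole list neighbouring peaks were a median of 222682 bp apart in OPC and 567885 bp in OLG. The closest OPC centres were 400 bp apart, or 1.91 times the fixed peak width of 209 bp, and the closest OLG centres 446 bp, or 2.02 times the width of 221 bp. The lists hold no signal between peaks, and whether close pairs are separate bound sites was not tested.

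**Figure D2:**
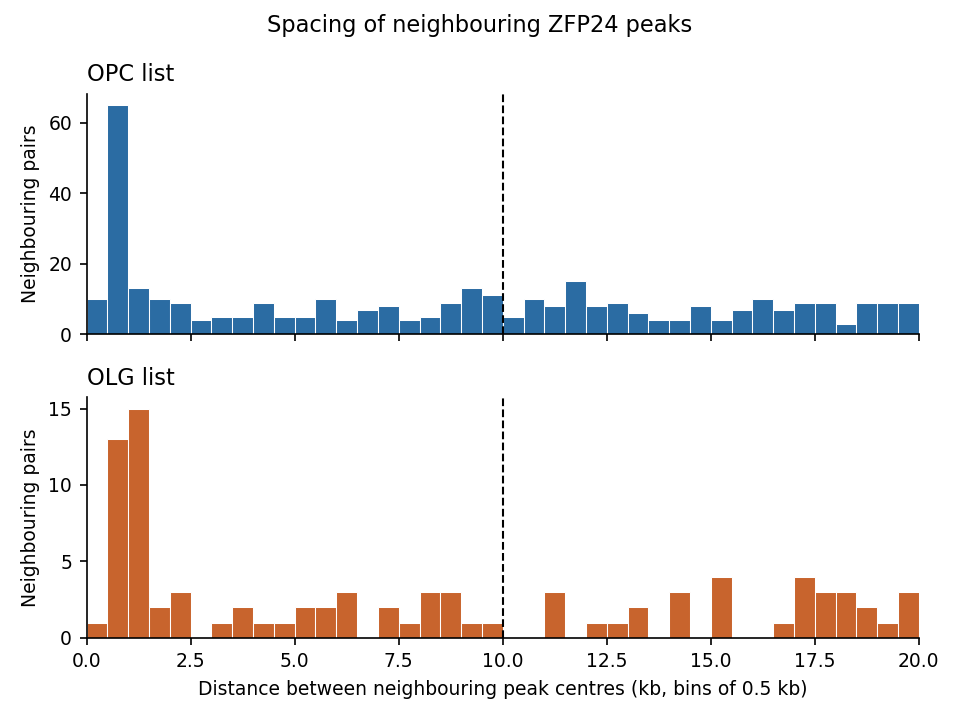
Number of neighbouring peak pairs against the distance between their centres in kb, in bins of 0.5 kb, for the OPC list (top) and the OLG list (bottom), with the 10 kb limit as a dashed line. The tallest OPC bin, 500 to 1000 bp, holds 65 pairs, and the OLG pairs gather in the bins from 500 to 1500 bp with 13 and 15 pairs.

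The 10 kb limit cut through a continuous range of spacings. The OPC pairs just inside it were 9905 bp apart at Ccnd3, the cyclin D3 gene, and 9915 bp apart between Rab7b and Slc26a9. The OPC pairs just outside were 10179 bp apart at Tcf7l1 and 10257 bp apart at Gfra1. In OLG the pairs just inside were 9421 bp apart at Pagr1a and Maz and 9656 bp apart at Sdc3, and those just outside 11059 bp at Ppara and 11283 bp at Sfswap. Under a 20 kb limit 694 OPC and 170 OLG peaks were clustered.

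The clusters with most peaks lay at genes of several kinds. Among transcription factor genes, Jun, which encodes a subunit of AP-1, had 3 OPC peaks over chr4:95050469-95052149, at 1649, 1071 and 177 bp downstream of its start. Creb5, which encodes a CRE-binding factor, had 3 OPC peaks in an intron over chr6:53619167-53624706, the middle one with a 15-base repeat. Srf, the serum response factor gene, had 3 OLG peaks over chr17:46555120-46564283. The pair nearest its start lay 945 and 234 bp downstream, and the third 7998 bp upstream. Pou4f3, a POU homeobox gene, had 3 OPC peaks spread over 15651 bp downstream of its start, at 568, 6621 and 16219 bp.

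Genes of membrane signalling also held such clusters. Gria2, which encodes an AMPA receptor subunit, had 3 OPC peaks over chr3:80800460-80803176, at 2271 and 1553 bp downstream and 237 bp upstream of the start. The Kcnd3 intron held 3 OPC peaks over chr3:105662953-105667188, of which the middle one had a 37-base repeat. Their nearest coding start was that of the neighbouring gene Ddx20, at 20490 to 24517 bp. Dtx1, which encodes Deltex, a ubiquitin ligase of the Notch pathway, had 3 OPC peaks across 16030 bp, chr5:120695653-120711891. Its start held 1 peak at 140 bp, and the intronic peaks at 9923 and 16170 bp both held the repeat.

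Other clusters of 3 or more peaks were at genes of other functions. The only cluster of 4 peaks lay upstream of Lekr1 over chr3:65648092-65665962, with centres 18032, 8205, 7242 and 370 bp before the start and a 23-base repeat in the second. Ewsr1, which encodes an RNA-binding protein, had OPC peaks over chr11:5094318-5099364, one 6 bp from its start. Cpd, the carboxypeptidase D gene, had 3 OPC peaks in coding exons over chr11:76840336-76846941, at 6578, 744 and 181 bp from the start. The non-coding gene D630033O11Rik held 3 OPC peaks over chr9:43266232-43271731, the middle one with a 34-base repeat, with Oaf as the nearest coding gene. Twf1, which encodes an actin-binding protein, and Irak4 shared 3 OPC peaks across 13676 bp, chr15:94570061-94583945, and Abhd2 had a peak in its 3' UTR and a pair beyond it, across 11042 bp, chr7:79361692-79372942. Apba2, which encodes an adaptor protein that binds the amyloid precursor protein, had 3 OPC peaks in introns across 9761 bp, chr7:64687460-64697429, the last with a 13-base repeat, and Pou3f2, a POU homeobox gene, had 3 across 10548 bp. These last 2 clusters fell outside the naming rule and were added to complete the set. In OLG, Etnk2, the ethanolamine kinase 2 gene, had 3 peaks over chr1:133362513-133370379. The first 2 lay 949 bp upstream and 263 bp downstream of 1 start. The third, 6434 bp further along, lay 4937 bp downstream of another start and held a 38-base repeat. In each of these clusters at most 1 peak was a repeat peak, apart from Dtx1 with 2.

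**Figure D3:**
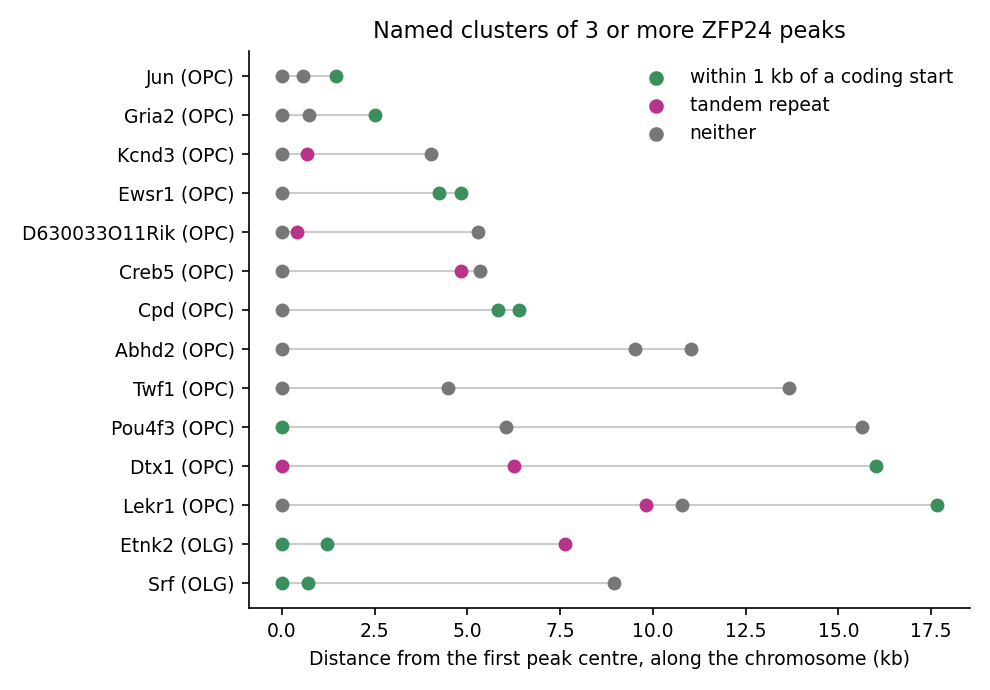
Peak positions in the named clusters of 3 or more peaks, in kb from the first peak centre along the chromosome, 1 line per cluster with its gene and list. Green points have a centre within 1 kb of a protein-coding start, magenta points hold the tandem repeat and grey points neither, and Lekr1 is the longest at 17662 bp.

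The shortest clusters were close pairs. In OPC the shortest span, 416 bp, lay in an intron of Sgms2, a sphingomyelin synthase gene, at chr3:131489929-131490553, with 77% and 69.5% GC and no repeat. It was followed by pairs upstream of Lhx1 (438 bp), upstream of Gsg1l (458 bp), across the start of Oxr1 (459 bp) and inside Rnf121 (471 bp). In OLG the shortest span, 446 bp, lay at the start of Wsb1, chr11:79254034-79254700, with centres 81 and 527 bp downstream. The next were at Chn2 (510 bp), Skida1 and Castor2 (532 bp each) and Cdk13 (535 bp). All 5 of these OLG pairs lay within 1 kb of a start, as did 1 of the 5 OPC pairs, that of Oxr1, while Rnf121 had 1 of its peaks within it. The longest OLG spans were at Sdc3 (9656 bp), Maz (9421 bp), Srf (8943 bp), Nuak1 (8920 bp) and Spen (8661 bp).

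Clusters made up of promoter peaks alone were mostly short, while those with at least 1 promoter peak had all spans. A promoter peak is one centred at most 1 kb from where a protein-coding transcript starts. Of the clustered OPC peaks 149 of 407, or 36.6% (95% interval 31.9 to 41.5), were promoter peaks, against 35.5% of the whole list. Of the clustered OLG peaks 66 of 112, or 58.9% (49.2 to 68.1), were promoter peaks, against 47.8% of the whole list. Intervals are exact (Clopper-Pearson) and cover counting error over peaks or clusters only. In OPC 44 of 196 clusters consisted of promoter peaks alone, 59 had some and 93 had none. In OLG the numbers were 22, 20 and 13 of 55.

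Spans were split into classes, with limits set after seeing the distances. Of the clusters under 1 kb, 28 of 65 in OPC (43.1%, 30.8 to 56) and 12 of 13 in OLG (92.3%, 64 to 99.8) held promoter peaks alone. The one OLG exception lay in an intron of Prkch, a protein kinase C gene. Of the clusters of 3 kb or more, 5 of 95 in OPC and 0 of 23 in OLG held promoter peaks alone. A short pair fits inside the promoter window and a long one often cannot, so part of this order follows from the definitions. Between the lists the difference within a class was not tested.

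**Figure D4:**
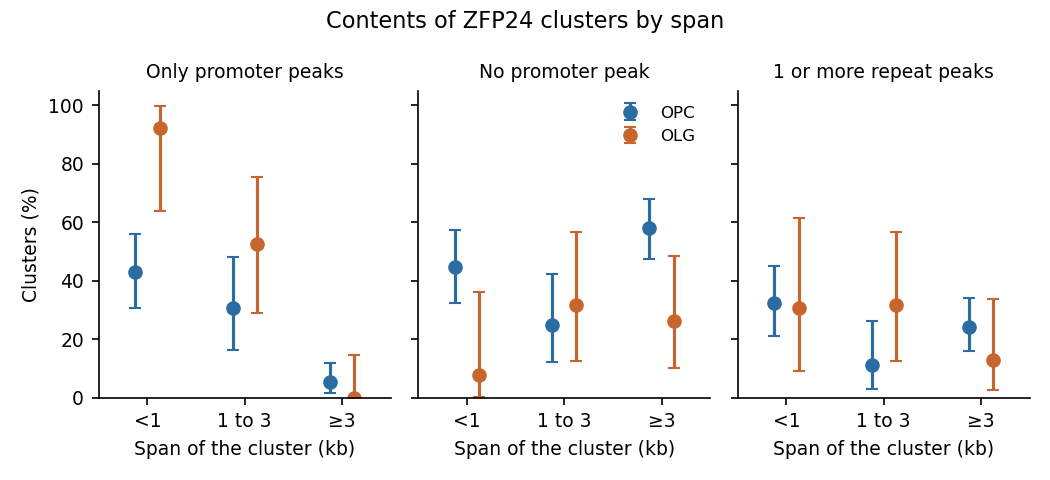
Share of clusters in percent with only promoter peaks, with no promoter peak and with 1 or more repeat peaks, by span class in kb, for OPC (blue) and OLG (orange), with exact 95% intervals as bars. Promoter-only clusters make up 92.3% of OLG clusters under 1 kb and 0% of those of 3 kb or more.

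Promoter peaks of a cluster lay upstream and downstream of starts. Each peak was placed against its own nearest start, and peaks of 1 cluster could have different starts of the same gene. Clusters of promoter peaks that shared 1 nearest gene numbered 36 in OPC. Of these, 19 had upstream and downstream peaks, 14 only downstream and 3 only upstream ones. In OLG the numbers were 11, 8 and 2 of 21. An upstream-only cluster could still hold a start between its peaks. At Zmym2 in OPC the peaks lay 525 and 542 bp upstream, with centres 1149 bp apart. Zeb2 was an OLG example with both downstream, at 902 and 207 bp. Clustered promoter peaks had a median position of 178 bp downstream in OPC and 177.5 bp in OLG, against 158 and 197.5 bp for isolated promoter peaks. For all peaks of a cluster the nearest gene was the same in 177 of 196 OPC clusters (90.3%) and 50 of 55 OLG clusters (90.9%). No protein-coding gene lay in the span of 47 OPC and 4 OLG clusters.

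Within a cluster the repeat was usually at a single peak. In OPC 48 of 196 clusters (24.5%, 18.6 to 31.1) held a repeat peak, and 43 of these held exactly 1. In OLG 13 of 55 (23.6%, 13.2 to 37) held one, and each held exactly 1. Counted by peaks, 53 of 407 clustered OPC peaks (13%) and 13 of 112 clustered OLG peaks (11.6%) were repeat peaks. The whole lists had 12.2% and 5.71%. Most clusters were pairs, and whether single repeat peaks were more common than these shares give was not tested. The repeat peak had the lowest GC content of its cluster in 37 of the 43 OPC clusters and in 13 of the 13 OLG clusters. Median GC was 42.5% at the repeat peaks and 50% at their 49 partners in OPC, and 48.5% and 63.5% with 14 partners in OLG. The TCAT unit has 1 G or C in 4 bases, so the stretch itself lowers the value. A partner was a promoter peak in 11 of the OPC and 7 of the OLG clusters.

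The clusters with 2 repeat peaks, 5 in OPC, were at Samd5, Anks1b, Gdnf, Igsf21 and Dtx1, and Gdnf and Igsf21 were named after their values were seen. Their repeats are shown because they are the cases where the known ZFP24 sequence occurs at more than 1 peak of a cluster. Names are those of the nearest start, the repeat is in capitals, and the strand is the one that reads TCAT.
Samd5, peak 1, chr10:9308759-9308831, - strand: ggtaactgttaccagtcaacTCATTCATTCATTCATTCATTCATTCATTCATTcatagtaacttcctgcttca
Samd5, peak 2, chr10:9309362-9309440, + strand: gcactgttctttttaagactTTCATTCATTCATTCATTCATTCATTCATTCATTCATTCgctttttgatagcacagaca
Anks1b, peak 1, chr10:90620113-90620184, + strand: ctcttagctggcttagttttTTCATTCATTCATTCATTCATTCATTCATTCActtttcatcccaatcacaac
Anks1b, peak 2, chr10:90627399-90627464, - strand: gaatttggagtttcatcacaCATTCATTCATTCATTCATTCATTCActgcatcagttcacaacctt
Gdnf, peak 1, chr15:7662859-7662915, - strand: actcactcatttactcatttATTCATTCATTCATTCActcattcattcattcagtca
Gdnf, peak 2, chr15:7663687-7663747, - strand: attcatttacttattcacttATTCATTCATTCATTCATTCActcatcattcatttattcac
Igsf21, peak 1, chr4:140311438-140311491, - strand: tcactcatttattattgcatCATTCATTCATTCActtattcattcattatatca
Igsf21, peak 2, chr4:140311873-140311929, - strand: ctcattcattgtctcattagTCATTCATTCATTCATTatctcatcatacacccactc
Dtx1, peak 1, chr5:120695748-120695807, + strand: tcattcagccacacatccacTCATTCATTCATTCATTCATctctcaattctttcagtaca
Dtx1, peak 2, chr5:120702059-120702111, - strand: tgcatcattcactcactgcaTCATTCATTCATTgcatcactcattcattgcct
The Samd5 pair had the longest summed repeat, 33 and 39 bases on opposite strands. Its peak centres were 523 bp apart and far from any start (365806 bp). The Gdnf pair lay 147953 and 147140 bp upstream of its start. Anks1b, which encodes a synaptic scaffold protein, had 32 and 26 bases on opposite strands in introns, with peak centres 7267 bp apart. It also had a second OPC cluster of 2 peaks without the repeat, nearer to the start of the same gene. At Gdnf, the gene of a neurotrophic factor, and at Igsf21 both repeats read on the - strand, with interrupted TCAT-like units around them.

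Long repeats also stood beside a peak without one. Those below are the longest of a clustered OPC peak (49 bases, at Ier5l and Dhx35), the 3 longest of clustered OLG peaks, and the one inside the Kcnd3 cluster described above, which is shorter than several others in OPC. They are again in capitals on the strand that reads TCAT.
Ier5l, OPC, chr2:30464748-30464836, - strand: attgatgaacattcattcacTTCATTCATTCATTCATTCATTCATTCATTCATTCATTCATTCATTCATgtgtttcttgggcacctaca
Dhx35, OPC, chr2:159007048-159007136, + strand: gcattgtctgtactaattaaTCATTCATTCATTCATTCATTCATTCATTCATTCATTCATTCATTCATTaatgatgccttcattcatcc
Kcnd3 intron, OPC, chr3:105663687-105663763, - strand: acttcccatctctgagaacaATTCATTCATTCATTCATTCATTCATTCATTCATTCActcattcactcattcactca
Jsrp1, OLG, chr10:80809886-80809967, - strand: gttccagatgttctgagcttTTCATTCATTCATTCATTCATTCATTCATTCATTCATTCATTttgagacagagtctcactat
Etnk2, OLG, chr1:133370226-133370303, + strand: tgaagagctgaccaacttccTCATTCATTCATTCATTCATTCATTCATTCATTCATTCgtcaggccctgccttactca
Prkch intron, OLG, chr12:73775297-73775372, - strand: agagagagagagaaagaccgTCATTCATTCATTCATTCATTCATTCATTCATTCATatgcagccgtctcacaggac
The Ier5l repeat, 49 bases, was in a peak centred 9403 bp downstream of the start, and the partner of the repeat peak lay at the start (419 bp) with 73.5% GC. The Dhx35 repeat, also 49 bases, was in a peak centred 212238 bp from the nearest start. The Jsrp1 repeat, 42 bases in an intron, was the longest of the clustered OLG peaks, and Memo1 held 47 bases in OPC. The median repeat length was 26 bases in clustered and 28 in isolated OPC repeat peaks, and 25 and 26 bases in OLG.

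Few neighbouring peaks resembled each other in sequence. A local alignment of at least 50 bp at 70% identity or more was found in 5 of 211 OPC pairs and 2 of 57 OLG pairs. The OPC pairs were at Igsf21 (113 bp at 76.1%), Dtx1 (84 bp at 71.4%), Tmem143 (97 bp at 88.7%), Zfp827 (55 bp at 70.9%) and Gdnf (146 bp at 79.5%), and the OLG pairs at Skida1 (56 bp at 73.2%) and Keap1 (52 bp at 71.2%). At Igsf21, Dtx1 and Gdnf both aligned peaks held the TCAT repeat, and its part in the alignments was not tested. Peaks that are not neighbours were not aligned, so these counts have no reference. At Tmem143 and Gdnf 100% of the sequence between the peaks was masked as repetitive in the assembly. How reads that match several such copies were treated is not stated by the labels, and its part in these pairs was not tested. Among the OPC pairs within 1 kb, 7 of 75 had a TCAT stretch between the peaks, and among such OLG pairs 0 of 14 did. Igsf21 had 6 stretches there, the longest of 30 bases, which is longer than the 14 and 17 bases inside its peaks.

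The question of whether clustered peaks differ in kind from isolated ones was tested with 1 peak per cluster, the one of lowest coordinate, against all isolated peaks of the same list, by Fisher's exact test, two-sided, with Benjamini-Hochberg adjustment over 6 tests. Position alone chose the clusters, and neither the promoter, the repeat nor the other list entered the rule. All of these traits are nevertheless read at the same peak positions, so the tests are not independent of how the members were chosen. None of the 6 tests passed 0.05. In OPC, promoters held 70 of 196 clusters' first peaks (35.7%) and 1497 of 4236 isolated peaks (35.3%), an odds ratio of 1.02 (0.743 to 1.38, exact test, adjusted p = 1). The repeat was in 23 of 196 (11.7%) and 514 of 4236 (12.1%), an odds ratio of 0.963 (0.589 to 1.51, exact test, adjusted p = 1). The OPC intervals thus reach from 0.743 to 1.38 times the odds for promoters and from 0.589 to 1.51 times for the repeat.

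In OLG the shares were higher at clusters but their intervals were wide. Promoters held 33 of 55 first peaks (60%) and 772 of 1640 isolated peaks (47.1%), an odds ratio of 1.69 (0.945 to 3.06, exact test, adjusted p = 0.239). With a 5 kb limit the odds ratio in the same exact test was 2.56 (adjusted p = 0.0345), with a promoter window of 2 kb it was 2.26 (adjusted p = 0.0348), and with one of 500 bp it fell below 1, to 0.848 (adjusted p = 0.803). In this exact test it was 1.11 (adjusted p = 0.845) with peaks within 1 kb merged into 1 site, and 1.17 (adjusted p = 0.632) with a 20 kb limit. Each setting was adjusted on its own. The repeat was in 6 of 55 (10.9%) and 87 of 1640 (5.3%), an odds ratio of 2.18 (0.744 to 5.3, exact test, adjusted p = 0.239). The ratio of the OLG to the OPC odds ratio was 1.66 (0.889 to 3.1) for promoters and 2.27 (0.851 to 6.06) for the repeat, and both intervals include 1. These intervals cover counting error over peaks only. With 1 library per stage and lists that overlap at some peaks, they cannot decide whether the stages differ.

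Overlap with the other list, by at least 1 bp, was found at 12 of 196 OPC clusters' first peaks (6.12%) and 227 of 4236 isolated OPC peaks (5.36%), where the whole list had 5.47% (odds ratio 1.15, 0.576 to 2.1, exact test, adjusted p = 0.939). In OLG it was found at 12 of 55 (21.8%) and 231 of 1640 (14.1%), where the whole list had 14.5% (odds ratio 1.7, 0.804 to 3.35, exact test, adjusted p = 0.239). The pooled input is named as a control of both stages, how it entered the calling is not stated, and its part in these overlaps was not tested. Over all clustered peaks it was found at 27 of 407 in OPC (6.63%) and 23 of 112 in OLG (20.5%). Counting clusters with any overlapping peak, there were 25 of 196 in OPC (12.8%) and 21 of 55 in OLG (38.2%). A cluster has more than 1 peak that can overlap, so these cluster shares cannot be set against the shares of peaks. Of these clusters, 22 in OPC and 18 in OLG met only isolated peaks of the other list.

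**Figure D5:**
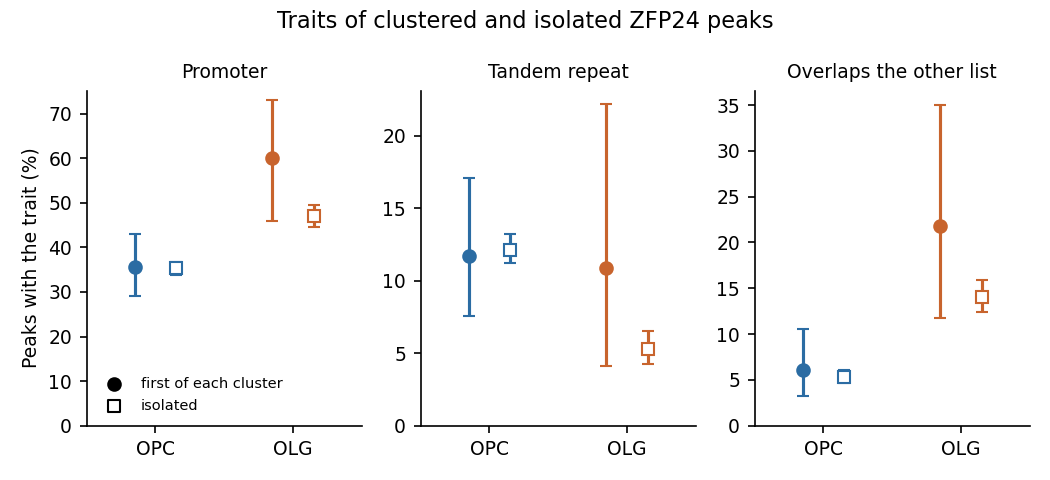
Share of peaks in percent that lay at promoters, held the tandem repeat or overlapped the other list, for the first peak of each cluster (filled circles) and isolated peaks (open squares), with exact 95% intervals as bars, OPC in blue and OLG in orange. The bars of clustered and isolated peaks overlap in each panel, and the OLG circles lie above their squares, at 60%, 10.9% and 21.8%.

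Other properties were compared without a test. The median distance to the nearest protein-coding start was 4384 bp at clustered and 10078.5 bp at isolated OPC peaks, and 750 and 1453.5 bp in OLG. Median GC content was 51.5% at clustered and isolated OPC peaks, and 63% and 59% in OLG. Coding exons held 12.3% (9.26 to 15.9) of clustered and 7.48% (6.71 to 8.32) of isolated OPC peaks, and 17% and 14.3% of OLG peaks. Introns of protein-coding genes held 42.3% and 46.1% in OPC, and 39.3% and 43.7% in OLG. Peaks of 1 cluster share a locus and are not independent, so the intervals over clustered peaks are too narrow.

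Clusters were looked up at listed genes of oligodendrocyte biology. Of 45 lineage regulators, 1 (2.22%) had an OPC cluster and 1 (2.22%) an OLG cluster, where all coding genes had 1.06% and 0.304%. The OPC one was Tcf12, which encodes an E protein that pairs with bHLH factors, with a pair 20983 and 26178 bp upstream, chr9:72132750-72138153. The OLG one was Zeb2, a zinc finger homeobox gene needed for myelination, with its pair just inside the start, chr2:45109276-45110191. Of 20 cytoskeleton genes, 2 (10%) had an OPC cluster and 0 an OLG cluster. Vim, the vimentin gene, had a peak at 262 bp and another at 9581 bp downstream, chr2:13574439-13583966, and Tubb5, a beta-tubulin gene, had a peak in a coding exon in a cluster that ran to the start of Mdc1, chr17:35836061-35841760. No cluster of either list lay at any of the listed genes of the other kinds, which were 24 myelin, 16 progenitor surface, 30 signalling, 21 cell cycle and 22 ribosomal and housekeeping genes and 17 neuronal, 9 astrocyte and 12 microglial and endothelial markers. These lists are short, and related genes outside them did have clusters, such as the ribosomal protein genes Rpl26 and Rpl8 and the cyclin gene Ccnd3 in OPC and Cdc20, which encodes an activator of the anaphase-promoting complex, in OLG, named after their values were seen. No test was made of these counts. Lists of this size are too short to tell a share of 0, or one resting on 1 or 2 genes, from the background shares.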

How the data were processed

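The authors deposited a list of peak positions for each stage, with chromosome, start, end and name and with no score or count. The submitters' processing notes name the tools BWA and HOMER 4.8.3 and the build mm10. Calling options, thresholds and the use of the null and input libraries are not stated in the labels or the lists. Null and input signal was not analysed here. Positions were made 1-based and compared with GRCm38.p6 and GENCODE M21 basic, where 0 peaks ran past a chromosome end. Python 3.11.15, numpy 2.4.6, scipy 1.17.1, pandas 2.3.3, Biopython 1.88 and pysam 0.24.0 were used. Nearest genes are by the closest start of a protein-coding transcript. Pairs were aligned locally on both strands (match 1, mismatch -1, gap opening -3, extension -1). The scripts were tested on simulated data.

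The members, gene lists and tests were chosen with earlier results of these data known. Named clusters were those meeting the other list, the 8 with most peaks and the 5 shortest, 5 longest and 5 richest in repeat bases per list, those at listed genes, and 2 pairs on each side of the limit. Alternatives were other limits, merging of close peaks, promoter windows, repeat lengths, overlap rules and the peak taken from each cluster.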

Additional observations from a re-analysis of the deposited data

How the results depend on the processing

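Of 30 alternatives of the cluster counts, 19 stayed within 1.5 times the reported value. With a 5 kb limit there were 129 OPC clusters of 264 peaks. With 20 kb there were 330 OPC clusters of 694 peaks and 170 clustered OLG peaks, and 8 OPC clusters met 8 OLG clusters. With peaks within 1 kb merged into 1 site there were 130 OPC clusters of 266 sites, and 0 OPC clusters met 0 OLG clusters. At Ext1, Dzip3 and Galnt1 merging left at least 1 list with a single site. Of 44 alternatives of the Fisher's exact tests, 34 kept direction and side of the threshold. The OPC repeat odds ratio was 1.06 with the peak of highest coordinate, 1.08 with all clustered peaks and 1.11 at 20 kb. The OPC promoter odds ratio was 0.808 after merging, 0.824 within 500 bp and 0.982 with the start of any gene, and that of OPC overlap was 0.845 after merging. The OLG promoter odds ratio was 0.848 within 500 bp, and past the threshold at 2.56 with the 5 kb limit and 2.26 within 2 kb. For these the cause was not tested. No paired analysis was possible because each group has 1 library. Without read counts, depth and peak strength limit every count in a way that these lists do not show.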

Other observations

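Further clusters lay at genes that no list held, and they were named after their values were seen. Among transcription factor genes, the 3 OPC peaks of Pou3f2 lay at 237 bp downstream and 6677 and 10311 bp upstream of its start, and Foxo1 had an OPC pair at 249 and 1724 bp downstream. Sox21 had an OLG pair downstream of its start, at 7233 bp with a 25-base repeat and at 2316 bp in the 3' UTR. Cux1 had an OLG pair at 406 and 72 bp downstream of starts. Of the Wnt pathway, Lef1 had an OPC pair with centres 5323 bp apart, 3702 and 705 bp upstream of different starts. The second peak lay in an intron, and a start lay between the centres. Dkk1, which encodes a secreted Wnt inhibitor, had an OPC pair 4424 and 11180 bp upstream, and Tcf7l1 had one in an intron at 59172 and 58555 bp.

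Ret, which encodes a receptor tyrosine kinase, held an OLG pair at 5677 and 160 bp downstream of the start. Among synaptic genes, Grin2a, an NMDA receptor subunit gene, had an OLG pair at 732 bp downstream and 52 bp upstream of starts. Homer1 had an OLG pair at 179 and 73 bp upstream of starts. Grik2, a kainate receptor subunit gene, had an OPC pair with centres 7199 bp apart, 90 bp downstream and 1602 bp upstream of different starts. The OLG cluster at the start of Keap1 ran into a coding exon of S1pr5, a sphingosine phosphate receptor gene known for its expression in oligodendrocytes, 3619 bp from the nearest start. Igsf9b and Anks1b were the genes nearest to 2 OPC clusters each. No test was made on these genes, and nothing is claimed of them beyond their positions.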
